A study of Mus musculus with 12 samples.

Results

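Extracellular vesicles (EVs) from the adipose tissue of mice on a high-fat diet (HFD) were compared with EVs from mice on chow by small RNA sequencing. All EV libraries of the study were used, which are 6 of its 12 libraries, with 3 HFD libraries and 3 Chow libraries. The other libraries came from the hippocampus and do not enter any value given here. All mice were wild-type (WT) males of the inbred strain C57BL/6J. The series' text gives 12 weeks for the diets, and no age of the animals is given in the sources used here. RNA was taken up in Trizol and sequenced as small RNA libraries at Novogene. The sources used here do not give the fat depot, the fat content of the diet or the way EVs were isolated. Nothing in the labels says that the numbered libraries of a diet are from different animals, and a p-value therefore refers to the spread among these libraries, which may in part be technical. All 1084 rows of the EV table were considered, of which 1038 were known mature miRNAs and 46 were predicted small RNAs.

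MicroRNAs (miRNAs) are short RNAs that guide Argonaute proteins to messenger RNAs, mainly by pairing of the seed, bases 2 to 8 of the mature strand. A miRNA hairpin yields a 5p and a 3p arm, of which the more abundant is usually called the guide and the other the passenger. Adipocytes and the other cells of fat, among them macrophages, endothelial cells and fibroblasts, release EVs that carry miRNAs to other cells, and fat is a major source of circulating EV miRNAs in mice. In bulk vesicle RNA, fewer vesicles from a cell type and less RNA per vesicle cannot be told apart.

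The sequences of the miRNAs that the comparison turns on are shown first, from RefSeq on the mouse build GRCm38, 5′ to 3′ with the seed in capitals. A sequence was matched for 15 of the 17 miRNAs called between the diets, and miR-143-3p and miR-30b-3p are given by name. The first set holds those that were higher in HFD EVs.
let-7f-5p: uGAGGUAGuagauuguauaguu
miR-98-5p: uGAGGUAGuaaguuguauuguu
miR-21a-5p: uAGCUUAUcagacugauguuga
miR-146a-5p: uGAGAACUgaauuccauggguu
miR-223-3p: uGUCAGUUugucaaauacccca
miR-223-5p: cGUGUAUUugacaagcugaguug
miR-142a-5p: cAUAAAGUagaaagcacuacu
miR-342-3p: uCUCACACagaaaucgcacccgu
miR-335-5p: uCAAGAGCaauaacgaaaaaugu
miR-27b-5p: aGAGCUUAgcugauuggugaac
miR-9-3p: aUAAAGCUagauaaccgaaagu
miR-9b-5p: uUCGGUUAucuagcuuuauga
The second set holds those that were lower in HFD EVs, and miR-148a-3p, the most abundant miRNA of every library, is shown with them.
miR-126a-3p: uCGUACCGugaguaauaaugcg
miR-30a-3p: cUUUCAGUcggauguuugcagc
miR-193a-3p: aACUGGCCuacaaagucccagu
miR-148a-3p: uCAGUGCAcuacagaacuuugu
In these sets, let-7f-5p and miR-98-5p had the same seed, GAGGUAG, and every other called miRNA had a seed of its own.

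The libraries held 5941955, 1825488 and 1969840 counts for HFD and 2294878, 2225806 and 2120171 counts for Chow, so HFD library 1 was the deepest. Counts above 0 were found for 680 to 864 rows in HFD libraries and for 654 to 742 rows in Chow libraries. The limit that a count of 0 allows, 3 counts, lay between 0.465 and 2.0 CPM (counts scaled to a common library total) and covers counting error only. No pair of replicates was a repeat of the same library, since the chi-square of their counts was far above its degrees of freedom. Replicates differed from each other by a median SD of 0.36 in HFD EVs and 0.45 in Chow EVs on the log2 scale. The limit above and the levels below are CPM after TMM scaling, a scaling that centres the libraries on most of their rows.

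Between the diets, 17 of 389 tested rows were called by edgeR's quasi-likelihood test at an adjusted p under 0.05, which is 4.37% of those tested. Of these, 13 rose in HFD EVs (3.34% of those tested) and 4 fell (1.03%), and all 17 were known miRNAs. The risen miRNAs were let-7f-5p, miR-98-5p, miR-21a-5p, miR-146a-5p, miR-223-3p, miR-223-5p, miR-335-5p, miR-342-3p, miR-142a-5p, miR-9-3p, miR-9b-5p, miR-27b-5p and miR-30b-3p, and the fallen ones were miR-30a-3p, miR-143-3p, miR-193a-3p and miR-126a-3p. The libraries of the diets did not overlap for any of the 17, a property shared by 127 of all tested rows (32.6%). The median log2 fold change of all tested rows was −0.13, and 99 rows had an unadjusted p under 0.05, 49 of them higher and 50 lower in HFD EVs. A further 41 rows had an adjusted p between 0.05 and 0.1, of which 21 were higher and 20 were lower in HFD EVs.

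The count of calls depended on single libraries and on the tool. Without HFD library 1, HFD library 2, Chow library 1 or Chow library 2, edgeR called 0 rows, with 82, 66, 80 and 95 rows at an unadjusted p under 0.05. DESeq2 called 39, 25, 32 and 40 rows when the same libraries were left out, and at least 16 of the 17 were among its calls each time. With all 6 libraries DESeq2 called 55 rows, 31 of them higher in HFD EVs and 24 lower. Scaling by library totals called 38 rows, 33 higher and 5 lower in HFD EVs, and moved the median of all tested rows by 0.29 to 0.16. Totals taken without miR-148a-3p called 25 rows, 13 higher and 12 lower. All 17 kept their direction under every one of these settings. Leaving out a library could hardly have turned it, since the diets did not overlap for any of the 17.

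**Figure D1:**
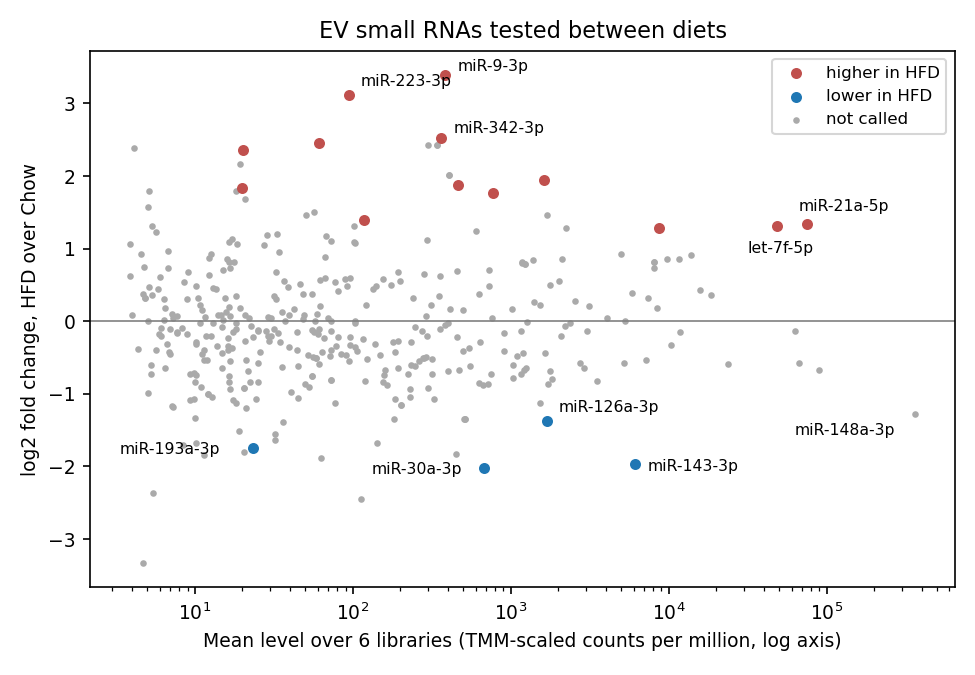
Log2 fold change (HFD over Chow) of the 389 tested rows against their mean level over 6 libraries in CPM on a log axis, with called rows coloured by direction. The 13 risen miRNAs span from under 100 CPM to miR-21a-5p near the right edge, while the most abundant row, miR-148a-3p, lies at −1.28 and was not called.

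The calls reached the most abundant class of EV miRNAs. Of the 13 tested rows with a mean of at least 10000 CPM, 2 rose and 0 fell. At 1000 to 10000 CPM, 2 of 52 rows rose and 2 fell, at 100 to 1000 CPM 5 of 96 rose and 1 fell, and at 10 to 100 CPM 4 of 172 rose and 1 fell. Of the 56 rows under 10 CPM edgeR called 0, DESeq2 4 and limma-voom 2, and 7 had an unadjusted p under 0.05 by edgeR. Their median SE of a log2 fold change was 0.59, and that of the highest class was 0.26.

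A single miRNA, miR-148a-3p, took the largest share of every library. It is known to promote adipocyte differentiation and is abundant in fat and liver. Its share was 21.0, 23.8 and 26.4% of counts in HFD libraries, against 39.7, 34.1 and 57.2% in Chow libraries. The shares of the diets did not overlap, and Chow library 3 stood highest. The mean share was 23.8 ± 2.71% in HFD EVs and 43.7 ± 12.0% in Chow EVs (SD, n = 3 each), a difference of −19.9 percentage points with an exact two-sided permutation p of 0.1, the smallest that 3 against 3 libraries can give. In TMM-scaled CPM its log2 fold change was −1.28, with an adjusted p of 0.0772 by edgeR, so it did not pass the threshold there.

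The 10 most abundant miRNAs together held 72.3 ± 0.797% of counts in HFD EVs and 79.6 ± 3.68% in Chow EVs (SD, n = 3 each), a difference of −7.27 points (exact permutation p = 0.1). Without miR-148a-3p, the other 9 held 48.6 ± 3.01% of all counts in HFD EVs and 35.9 ± 8.57% in Chow EVs. The difference was 12.6 points at the same p. These totals still hold miR-148a-3p, so a fall of miR-148a-3p by itself raises the share of the other 9. The difference therefore does not show that these 9 gained on the remaining miRNAs. In rank within the libraries, miR-21a-5p was 2nd in all HFD libraries and 4th or 5th in Chow libraries, and let-7f-5p was 3rd or 4th in HFD libraries and 6th or 7th in Chow libraries. Of the other abundant miRNAs, miR-10b-5p and miR-10a-5p, which lie in the Hox clusters, had −0.67 and −0.58 as log2 fold changes (adjusted p = 0.122 and 0.168, edgeR). The values for miR-99a-5p and miR-26a-5p were −0.13 and 0.43 (adjusted p = 0.813 and 0.327). Those for miR-30a-5p and miR-30d-5p were −0.59 and 0.36 (adjusted p = 0.274 and 0.41). The sign of miR-99a-5p turned to 0.13 under scaling by library totals.

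**Figure D2:**
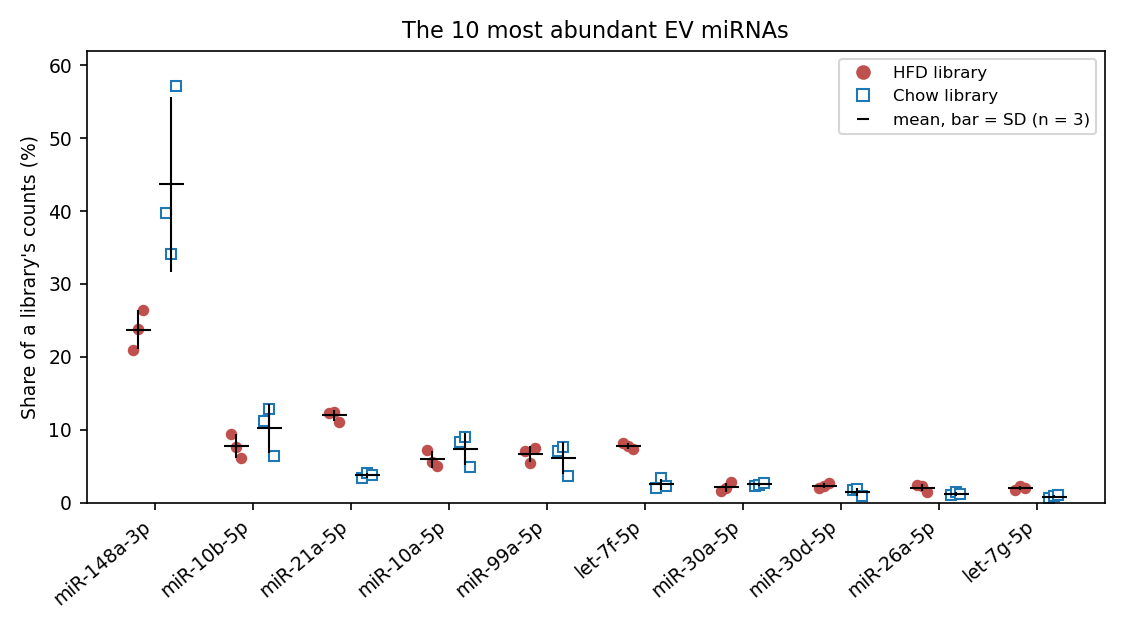
Share of each library's counts, in percent, taken by the 10 most abundant EV miRNAs, with points for libraries and a bar for mean and SD (n = 3). The HFD libraries lie below the Chow libraries for miR-148a-3p (23.8% against 43.7% on average) and above them for miR-21a-5p (12.0% against 3.74%) and let-7f-5p (7.73% against 2.53%).

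Of 8 tested miRNAs listed as leukocyte markers, 4 rose and 0 fell, and their median log2 fold change was 2.18 beside −0.13 for all tested rows. Together they took 0.328 to 0.875% of counts in HFD libraries and 0.12 to 0.141% in Chow libraries. These 4 calls stand beside the 3.34% of all tested rows that rose. For 7 of the 8 the diets did not overlap and HFD was higher, which held for 15.7% of all tested rows. The hairpins miR-142a, miR-223 and miR-342 each enter this list with both arms, so its rows are not independent. The list was made with earlier results of these data known. The part of leukocyte vesicles in the other diet differences was not tested.

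The strongest of these was miR-223-3p, a miRNA of the myeloid lineage that restrains granulocyte activity. It had 192, 146 and 168 CPM in HFD libraries, against 8.23, 15.2 and 35.4 CPM in Chow libraries. All HFD libraries lay above all Chow libraries, and the Chow libraries differed among themselves by more in proportion than the HFD libraries did. The log2 fold change was 3.12 ± 0.55 (SE), an 8.67-fold difference (adjusted p = 0.0226, edgeR). As single libraries were left out, the log2 fold change lay between 2.88 and 3.92, with an adjusted p of 0.0132 to 0.108 (edgeR). The value of 3.92 was that without Chow library 3, the highest of its diet. The opposite arm, miR-223-5p, also rose, to 167, 137 and 210.4 CPM in HFD libraries against 60.0, 72.6 and 62.1 CPM in Chow libraries, with a log2 fold change of 1.4 ± 0.31 (adjusted p = 0.0483).

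A miRNA carried in an intron of Evl, miR-342-3p, had 609.9, 612 and 639 CPM in HFD libraries, against 74.5, 64.2 and 184 CPM in Chow libraries. The HFD libraries were nearly level, and Chow library 3 was the highest of its diet. It rose 5.79-fold (log2 fold change 2.53 ± 0.46, adjusted p = 0.0233, edgeR). The log2 fold change lay between 2.28 and 3.27 as single libraries were left out, with an adjusted p of 0.00245 to 0.108. It was 3.27 without Chow library 3. Its partner arm miR-342-5p had a log2 fold change of 1.19 (adjusted p = 0.0992).

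The hairpin miR-142, expressed across blood cell lineages, gave 2539, 3815 and 1341 CPM of miR-142a-5p in HFD libraries, against 758, 533 and 722 CPM in Chow libraries. HFD library 2 was highest and HFD library 3 lowest of its diet, still above every Chow library, and the log2 fold change was 1.94 ± 0.41 (adjusted p = 0.0483, edgeR). The other arm, miR-142a-3p, had 558, 971 and 189 CPM in HFD libraries and 107, 91.0 and 120.1 CPM in Chow libraries. Its log2 fold change of 2.43 had an adjusted p of 0.0511 and did not pass. The lymphocyte miRNA miR-150-5p had 347, 939.9 and 217 CPM in HFD libraries and 114, 33.5 and 133 CPM in Chow libraries, without overlap and not called (log2 fold change 2.43, adjusted p = 0.0845).

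The activation-linked leukocyte miRNA miR-155-5p was not called. It had 348, 732 and 235 CPM in HFD libraries and 188, 258 and 725 CPM in Chow libraries, so the diets overlapped fully (log2 fold change 0.17, adjusted p = 0.924, edgeR). The log2 fold change lay between −0.4 and 1.07 as single libraries were left out.

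Of 11 tested miRNAs listed under inflammation and NF-κB, 2 rose and 0 fell, with a median log2 fold change of 1.05. Over all tested rows, 3.34% rose and the median was −0.13. The list's summed share was 13.1 to 15.4% of counts in HFD libraries and 4.29 to 5.07% in Chow libraries, most of it miR-21a-5p. This miRNA, which is induced in many inflamed tissues, had 113218, 105660.4 and 103036 CPM in HFD libraries, against 37936, 36035 and 52905 CPM in Chow libraries. The lowest HFD library lay well above the highest Chow library. It rose 2.54-fold (log2 fold change 1.34 ± 0.22, adjusted p = 0.0217).

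A feedback inhibitor of Toll-like receptor signalling through Traf6 and Irak1, miR-146a-5p, had 14144, 13547 and 9044 CPM in HFD libraries, against 4440.4, 5344 and 5364 CPM in Chow libraries. HFD library 3 was the lowest of its diet and above all Chow libraries, with a 2.43-fold rise (log2 fold change 1.28 ± 0.25, adjusted p = 0.0364, edgeR). Its relative miR-146b-5p, which has the same seed, overlapped between diets (log2 fold change 0.93, adjusted p = 0.124). The pair miR-221-3p and miR-222-3p, which share a seed with each other and are transcribed together, had log2 fold changes of 1.28 and 1.25, both with an adjusted p of 0.0591.

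Both arms of miR-9 were measured, and the largest rise of all called miRNAs was that of miR-9-3p. The miR-9 family is best known from neural progenitors, and in human monocytes and neutrophils miR-9 is induced by lipopolysaccharide. In EVs, miR-9-3p had 761, 766 and 590 CPM in HFD libraries, against 58.1, 41.1 and 103 CPM in Chow libraries. The groups lay far apart, with a 10.5-fold rise (log2 fold change 3.39 ± 0.42, adjusted p = 0.0196, edgeR). The 5p arm was uneven within HFD, at 625, 1156 and 183 CPM in HFD libraries and 139, 91.8 and 258 CPM in Chow libraries. HFD library 3 fell within the Chow range, and miR-9-5p did not pass (log2 fold change 2.01, adjusted p = 0.122). The row miR-9b-5p rose as well, with 155, 119 and 37.6 CPM in HFD libraries against 23.2, 18.4 and 15.4 CPM in Chow libraries (log2 fold change 2.45, adjusted p = 0.0483).

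The rows of miR-9b are not independent of those of miR-9. The mature miR-9b strands lie on the opposite strand of the same hairpins, and their sequences are reverse complements of the miR-9 arms over 19 and 21 bases. The lines below show both pairs, with the seeds in capitals.
miR-9-3p: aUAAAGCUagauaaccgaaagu
miR-9b-5p: uUCGGUUAucuagcuuuauga
miR-9-5p: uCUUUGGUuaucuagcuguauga
miR-9b-3p: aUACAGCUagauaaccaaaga
The counts of miR-9b-3p were at least 98.7% of those of miR-9-5p in every library. Those of miR-9b-5p were 6.37 to 44.7% of the miR-9-3p counts, so that pair was not a plain copy. The sources used here do not give how strand was treated in counting, and reads of sense and antisense rows therefore cannot be told apart.

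Repeated counts were also found beyond miR-9. The counts of 14 pairs of rows with a mean of at least 5 CPM differed by at most 5% in each library. Both sequences were found for 7 of these pairs, and all 7 were antisense to each other over at least 16 bases. Of 13 tested antisense pairs in all, 7 had the same counts and 6 did not, and in miR-203-3p with miR-203b-5p the smaller count was 43.9 to 63.4% of the larger. An example is miR-24-3p with miR-3074-5p, the first being a widely expressed miRNA of the miR-23, 27 and 24 clusters.
miR-24-3p: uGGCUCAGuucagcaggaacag
miR-3074-5p: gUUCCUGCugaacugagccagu
The leukocyte miRNA miR-142a-3p and the row miR-142b had identical counts, and both are reported here as miR-142a-3p. Of the called miRNAs with a sequence, miR-9-3p, miR-9b-5p and miR-126a-3p have a tested antisense row. That of miR-126a-3p, miR-126b-5p, held 1.02 to 2.3% of its counts.

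Markers of neurons differed widely in level. The neuron-defining miR-124-3p had 4, 0 and 1 raw counts in HFD libraries and 1, 2 and 0 in Chow libraries, and miR-137-3p had 1, 0 and 0 in HFD libraries and 0, 1 and 0 in Chow libraries, so neither was tested. Others on the list, which other tissues also express, were well detected. Of these, miR-128-3p had 832 to 1063 CPM with HFD and 433 to 1916 CPM with Chow, and miR-218-5p had 595 to 1079 CPM with HFD and 800.5 to 1328 CPM with Chow. In the neuron list 2 of 8 tested members rose, miR-9-3p and miR-9b-5p, and 0 fell, while 3.34% of all tested rows rose. The other members that do not belong to miR-9 were not called and had log2 fold changes between −0.76 and 0.44. The list median was 1.23 beside −0.13 for all tested rows, and 0.59 with repeated rows kept once or 0.78 without HFD library 2. The summed share of the list was 0.322 to 0.557% in HFD libraries and 0.174 to 0.301% in Chow libraries.

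Among let-7 guides, which restrain growth and developmental genes such as Hmga2 and Lin28, 2 of 9 tested members rose and 0 fell, with a median log2 fold change of 0.86. By comparison, 3.34% of all tested rows rose, with a median of −0.13. The summed share of the let-7 guides was 15.7, 14.8 and 13.4% of counts in HFD libraries, against 4.9, 7.96 and 5.96% in Chow libraries. Much of this was let-7f-5p, with 75179, 64979.8 and 67714 CPM in HFD libraries against 21645, 30167 and 31948 CPM in Chow libraries. The groups did not overlap, and the rise was 2.48-fold (log2 fold change 1.31 ± 0.22, adjusted p = 0.0217, edgeR). The family member miR-98-5p had 737, 682 and 760.5 CPM in HFD libraries, against 143, 200.3 and 249 CPM in Chow libraries, and rose 3.68-fold (log2 fold change 1.88 ± 0.31, adjusted p = 0.0217).

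The hairpins of both lie close together on the X chromosome. Mirlet7f-2 and Mir98 lie within an intron of Huwe1 at chrX:151912346-151913321 (GRCm38, plus strand), and let-7f-5p is also made from Mirlet7f-1 on chromosome 13. The rest of the family did not move as far. The log2 fold changes of let-7g-5p, let-7i-5p and let-7a-5p were 0.91, 0.86 and 0.86 without overlap between diets (adjusted p = 0.143, 0.0838 and 0.0956, edgeR). For let-7c-5p the value was −0.15 (adjusted p = 0.81) and turned to 0.17 under scaling by library totals, and for let-7b-5p it was −0.57 (adjusted p = 0.187). Their full sequences differ at few bases outside the shared seed.
let-7g-5p: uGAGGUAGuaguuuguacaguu
let-7i-5p: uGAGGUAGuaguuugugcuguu
let-7a-5p: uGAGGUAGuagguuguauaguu
let-7c-5p: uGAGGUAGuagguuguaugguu
Of 8 tested let-7 passenger strands, 0 were called by edgeR, DESeq2 or limma-voom and 0 had an unadjusted p under 0.05 by edgeR. Their median log2 fold change was −0.12 and became 0.15 under scaling by library totals.

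A miRNA within an intron of Mest, an imprinted gene known to mark fat expansion in mice, also rose. This was miR-335-5p, with 988, 1027 and 1570.3 CPM in HFD libraries, against 366, 222 and 473 CPM in Chow libraries. HFD library 3 was highest and the diets did not overlap (log2 fold change 1.76 ± 0.38, adjusted p = 0.0483, edgeR). The hairpin is at chr6:30741299-30741396 (GRCm38, plus strand). Its 3p arm, miR-335-3p, had a log2 fold change of 1.18 (adjusted p = 0.0896).

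A pair of low-abundance arms rose while their abundant partners did not pass. The first was miR-27b-5p, with 34.6, 37.4 and 29.1 CPM in HFD libraries against 6.78, 7.98 and 4.67 CPM in Chow libraries, a 5.12-fold rise (log2 fold change 2.36 ± 0.35, adjusted p = 0.0217, edgeR). Its partner miR-27b-3p, a repressor of Pparg and adipocyte differentiation, had 10484, 8184 and 11445 CPM in HFD libraries and 6640, 4596 and 6831 CPM in Chow libraries. These did not overlap either, with a log2 fold change of 0.74 (adjusted p = 0.122). All 9 tested members of the miR-23, 27 and 24 clusters had log2 fold changes above 0. Their median was 0.81, beside −0.13 for all tested rows, of which 3.34% rose. Of the 9, edgeR called 1, miR-27b-5p, while DESeq2 called 2 and limma-voom 1.

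The second such arm was miR-30b-3p, with 31.5, 33.3 and 29.1 CPM in HFD libraries against 10.6, 7.98 and 7.34 CPM in Chow libraries. The diets lay clearly apart, with a 3.59-fold rise (log2 fold change 1.84 ± 0.33, adjusted p = 0.0226, edgeR). The log2 fold change of its guide miR-30b-5p was −0.5 (adjusted p = 0.64) and became 0.62 without Chow library 3. In the miR-30 family another passenger strand fell. This was miR-30a-3p, with 388, 286 and 132 CPM in HFD libraries against 1085, 818 and 1372 CPM in Chow libraries, and it fell 4.05-fold (log2 fold change −2.02 ± 0.45, adjusted p = 0.0483). Its guide miR-30a-5p overlapped between diets (log2 fold change −0.59, adjusted p = 0.274). Of 5 tested guides of the miR-30 family, 0 were called by edgeR, DESeq2 or limma-voom and 0 had an unadjusted p under 0.05 by edgeR.

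The other miRNAs that fell are known from vessel walls, stroma and brown fat. The smooth muscle and fibroblast miRNA miR-143-3p, which also promotes differentiation of human preadipocytes, had 3561, 2187 and 1786 CPM in HFD libraries against 11283, 8249 and 9928 CPM in Chow libraries. No HFD library came near the lowest Chow library, and the fall was 3.91-fold (log2 fold change −1.97 ± 0.32, adjusted p = 0.0217, edgeR). Its arm miR-143-5p had a log2 fold change of −1.07 (adjusted p = 0.0838). Of 9 tested smooth muscle and fibroblast miRNAs, 0 rose and 1 fell, with a median of −0.78, which was −0.51 without Chow library 1 and −0.3 without Chow library 3, and a summed share of 0.7 to 0.822% in HFD libraries and 1.2 to 1.45% in Chow libraries. Over all tested rows, 1.03% fell and the median was −0.13. The smooth muscle and fibroblast list did not move as a whole, since 3 members had log2 fold changes above 0 and 6 below. Without overlap between diets, 1 was higher and 4 were lower in HFD EVs, beside 15.7% and 17.0% of all tested rows. The fibroblast-enriched miR-199a-3p had a log2 fold change of 0.28 (adjusted p = 0.703, edgeR). That of miR-199b-5p was −1.83 (adjusted p = 0.187).

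The endothelial miRNA miR-126a-3p lies in Egfl7 at chr2:26591357-26591429 (GRCm38, plus strand) and sustains VEGF signalling. It had 933, 916 and 969 CPM in HFD libraries, against 2509, 2347 and 2450.2 CPM in Chow libraries. Replicates were close in both diets, and it fell 2.59-fold (log2 fold change −1.37 ± 0.23, adjusted p = 0.0217, edgeR). The other 3 tested endothelial rows hold 2 measurements, since miR-126b-3p repeats the counts of miR-126a-5p. Both lay lower in HFD EVs without overlap, as 17.0% of all tested rows did, and edgeR called neither. The log2 fold change of miR-126a-5p was −0.81 (adjusted p = 0.177), and that of the antisense row miR-126b-5p was −1.64 (adjusted p = 0.0511). DESeq2 and limma-voom each called 2 of the 4 endothelial rows lower. The list took 0.113 to 0.122% of counts in HFD libraries and 0.189 to 0.288% in Chow libraries.

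From the list for brown fat and mature adipocytes, 0 of 8 tested members rose and 1 fell, with a median of −0.61 that was −0.31 under scaling by library totals. All tested rows had a median of −0.13, and 1.03% of them fell. The fallen member of the list was miR-193a-3p, a relative of the brown-fat miRNA miR-193b. It had 12.1, 10.2 and 9.86 CPM in HFD libraries, against 34.8, 26.7 and 46.7 CPM in Chow libraries, and fell 3.34-fold (log2 fold change −1.74 ± 0.35, adjusted p = 0.0364, edgeR). The 5p arm of the same hairpin had a log2 fold change of −1.51 (adjusted p = 0.057).

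**Figure D3:**
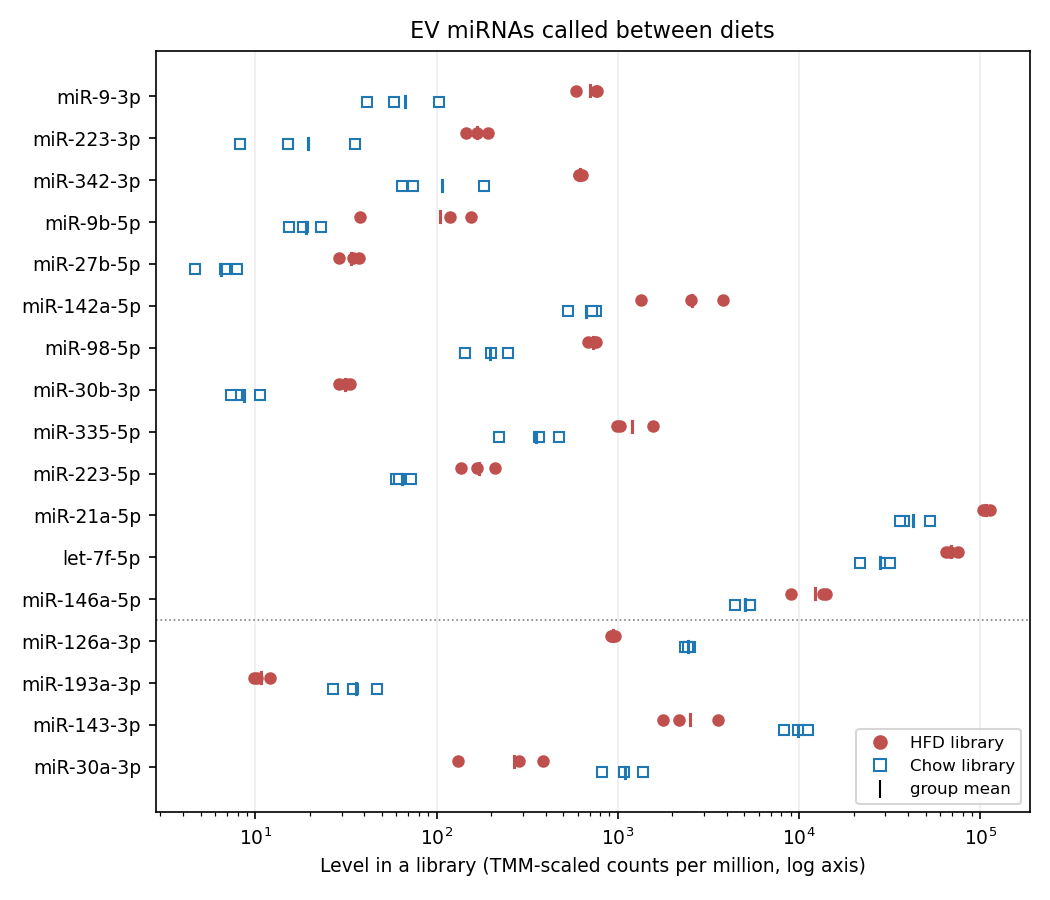
Level of the 17 called miRNAs in each library, in CPM on a log axis, with HFD libraries above Chow libraries in each row, short lines at group means and a dotted line between risen and fallen miRNAs. No miRNA has overlapping libraries, and miR-9-3p (761, 766 and 590 CPM in HFD against 58.1, 41.1 and 103 CPM in Chow) is the farthest apart.

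Changes in miRNAs linked to adipocyte differentiation went in both directions. Of 12 tested pro-adipogenic miRNAs, 2 rose (miR-21a-5p and miR-335-5p) and 1 fell (miR-143-3p), with a median log2 fold change of 0.05. Beside this, 3.34% of all tested rows rose, 1.03% fell and their median was −0.13. The list median lay between −0.0787 (totals taken without miR-148a-3p) and 0.34 (library totals) over the alternatives, and was 0.3 without HFD library 3. Of 5 tested anti-adipogenic miRNAs edgeR called 0, with 3 at an unadjusted p under 0.05 and a median of 0.74. DESeq2 and limma-voom each called 2 of these 5 higher. Membership of these lists overlaps with others, since miR-21a-5p and miR-143-3p stand in more than one.

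The balance between the arms of a hairpin was measured as the ratio of 5p to 3p counts within a library, which needs no scaling between libraries. Of 107 hairpins tested with limma, 3 were called (2.8%), all towards the 5p arm in HFD EVs, and 17 had an unadjusted p under 0.05, of which 9 moved towards 5p and 8 towards 3p. The median change over all hairpins was 0.02 on the log2 scale. These calls were lost (0 called, 20 at an unadjusted p under 0.05) when hairpins with at least 1 count per arm were admitted. They were also lost without HFD library 1, HFD library 2, Chow library 1 or Chow library 2, where limma called 0 and 15, 12, 12 and 14 hairpins had an unadjusted p under 0.05. Without HFD library 3 there were 2 calls, and without Chow library 3 there were 10.

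The first was miR-362, an X-linked hairpin, whose ratio was 0.256, 0.154 and 0.182 in HFD libraries against 0.0243, 0.0376 and 0.0254 in Chow libraries. The 3p arm dominated in every library, and the ratio was 6.76-fold higher in HFD EVs (change 2.76 ± 0.38 on the log2 scale, adjusted p = 0.0163, limma). The 5p arm rested on few reads in Chow EVs, with 184, 57 and 85 counts in HFD libraries and 9, 10 and 20 counts in Chow libraries.

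The ratio of miR-98 was 34.4, 27.6 and 17.5 in HFD libraries against 7.12, 7.03 and 6.61 in Chow libraries, 3.69-fold higher in HFD EVs (change 1.88 ± 0.34, adjusted p = 0.0354, limma). Its 5p arm is the let-7 family member described above, and its 3p arm had a log2 fold change of 0.06 (adjusted p = 0.949). For miR-146b the ratio was 1339, 1845 and 1479 in HFD libraries against 601, 409.7 and 503 in Chow libraries (change 1.63 ± 0.30, adjusted p = 0.0354). The 3p arm of miR-146b had only 37, 8 and 6 counts in HFD libraries and 11, 14 and 13 in Chow libraries.

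The hairpins next in order of p did not pass. The change for miR-27b was 1.61 towards 5p (adjusted p = 0.168, limma). The ratio of miR-148a, whose 3p arm is the most abundant miRNA, was 0.00052, 0.00039 and 0.000385 in HFD libraries against 0.00024, 0.000297 and 0.000208 in Chow libraries. This was a change of 0.8 ± 0.22 towards 5p without overlap (adjusted p = 0.168). For miR-223 the change was −1.95, towards the 3p arm (adjusted p = 0.178), and without Chow library 3 it was −2.52 with an adjusted p of 0.0194. For miR-9, which was lower in the order, it was −1.7 (adjusted p = 0.179), and −1.09 without HFD library 3. In all, 14 hairpins had an arm called by edgeR, and the ratios did not overlap between diets for 9 of them and overlapped for 5, among these miR-342, miR-142a and miR-335. Over all 107 hairpins, the ratios of 27 did not overlap (25.2%).

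**Figure D4:**
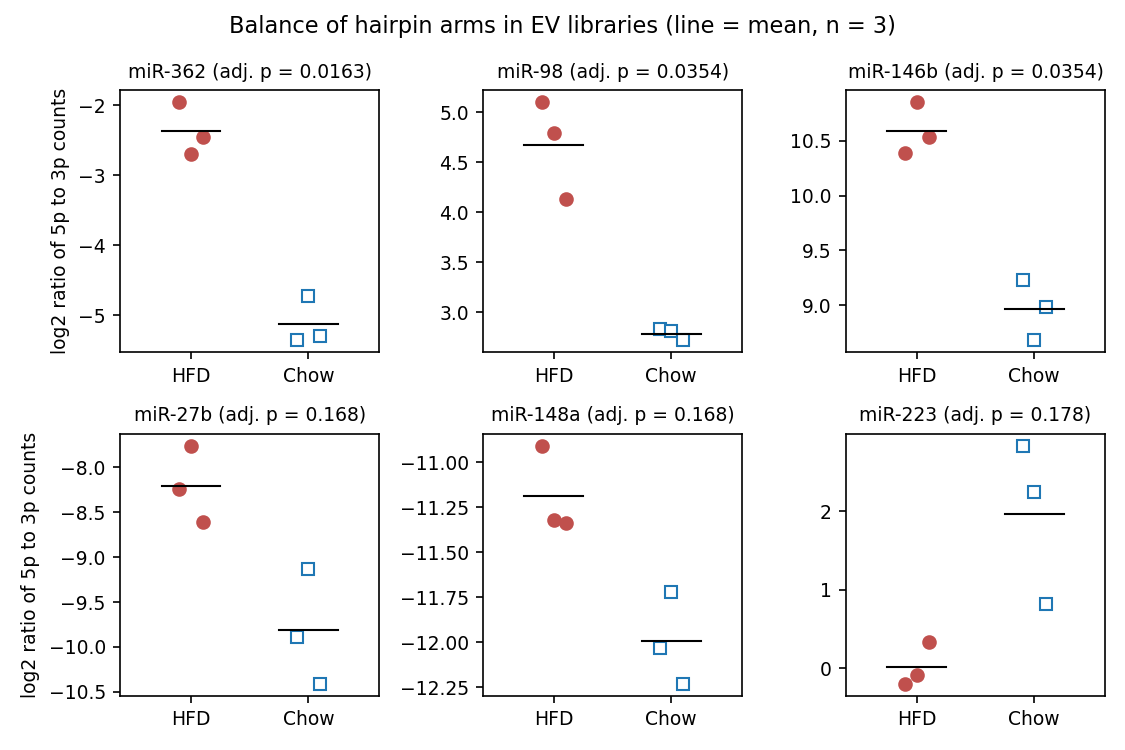
Log2 ratio of 5p to 3p counts in each library for the called hairpins miR-362, miR-98 and miR-146b (top row) and for miR-27b, miR-148a and miR-223 (bottom row), with HFD left of Chow and a line at the mean (n = 3). The diets do not overlap in any panel, as in 27 of all 107 hairpins, and of the 6 shown the adjusted p passes 0.05 in the top row alone.

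Families that share a seed and clusters of hairpins that lie close together in the genome were compared as groups. Families were built from the 328 tested miRNAs with a matched sequence, so some tested members are missing. Of 14 seed families with at least 3 members so matched, 1 had all members above 0 and 6 had all below 0. Among the 6 is a family of miR-30a-5p, miR-30c-5p and miR-30e-5p. It lacks the tested miR-30 guides miR-30d-5p and miR-30b-5p, at 0.36 and −0.5. The family above 0 has the seed AAAGUGC and holds miR-17-5p, miR-20a-5p, miR-93-5p and miR-106b-5p. Of 39 genomic clusters with gaps of at most 10 kb, 6 had every tested arm placed in them above 0 and 10 had every such arm below 0. An arm made at several loci, such as let-7f-5p, counts in each of its clusters. Counts by sign can depend on scaling, since the median of all tested rows was −0.13 and became 0.16 under scaling by library totals. Some members of the families lie close to 0, such as miR-99b-5p at −0.01. Of 5 tested members of the miR-181 family, edgeR called 0, with 3 lower at an unadjusted p under 0.05, while DESeq2 and limma-voom each called 1 lower. The lowest value there was that of miR-181d-5p (log2 fold change −1.35, adjusted p = 0.0553, edgeR).

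Epithelial miRNAs, such as the miR-200 family that maintains E-cadherin, had 14 tested members, of which edgeR called 0, with 6 at an unadjusted p under 0.05. DESeq2 called 4 of them lower and limma-voom 0. The median log2 fold change over all tested rows was also below 0, at −0.13, and was 0.16 under scaling by library totals. All 14 had log2 fold changes below 0, with a median of −0.8 that was −0.47 under scaling by library totals, −0.53 without HFD library 3 and −0.4 without Chow library 3. For miR-200c-3p, with 2107, 2442 and 2272 CPM in HFD libraries and 4015, 2723 and 3967 CPM in Chow libraries, the value was −0.65 (adjusted p = 0.164). In the Dlk1-Dio3 cluster, an imprinted cluster on chromosome 12, 27 of 31 tested members lay below 0, with a median of −0.42 that was −0.16 under scaling by library totals. Of the 31, edgeR, DESeq2 and limma-voom called 0, and 3 had an unadjusted p under 0.05 by edgeR.

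**Figure D5:**
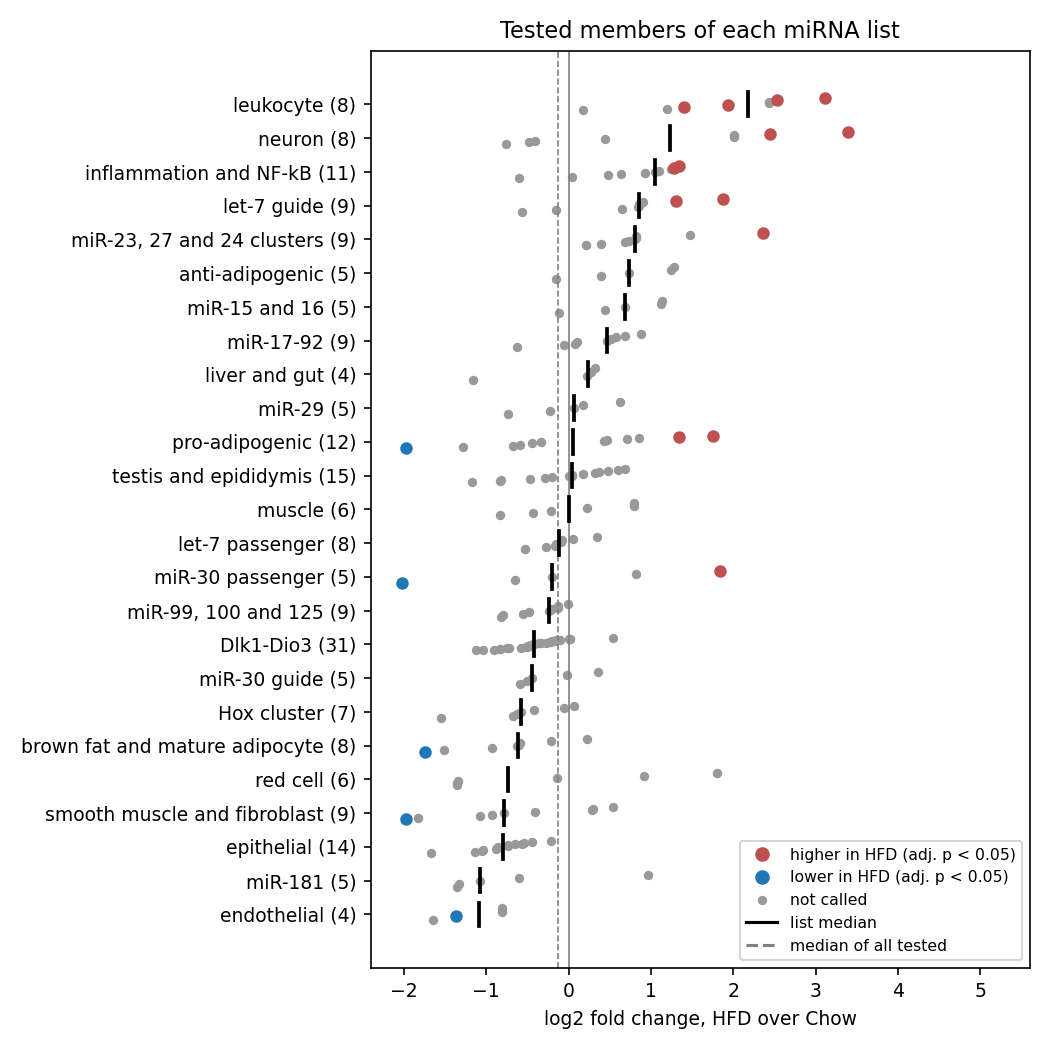
Log2 fold change (HFD over Chow) of the tested members of each miRNA list, with the number tested in brackets, list medians as black bars and the median of all tested rows as a dashed line. The leukocyte list lies farthest to the right (median 2.18) and the endothelial list farthest to the left (median −1.09), close to the miR-181 list (−1.07). All 4 endothelial rows come from the miR-126 locus, and their median was −0.79 under scaling by library totals.

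Some miRNAs of other tissues varied between libraries irrespective of diet. The intestinal and renal miRNA miR-215-5p had 959, 10283 and 13370.3 CPM in HFD libraries and 18101, 645 and 906 CPM in Chow libraries, so that HFD libraries 2 and 3 and Chow library 1 were high. The germ-cell miRNA miR-881-3p had 354, 914 and 1968 CPM in HFD libraries and 284, 2129 and 458 CPM in Chow libraries. The muscle miRNA miR-1a-3p had 146, 1182 and 3342 CPM in HFD libraries and 1311, 1176 and 207 CPM in Chow libraries. The diets overlapped for all of these, but not for the liver miRNA miR-122-5p. It had 134, 102 and 139.5 CPM in HFD libraries and 331, 248 and 258 CPM in Chow libraries. Its log2 fold change was −1.16 (adjusted p = 0.057, edgeR), and 17.0% of all tested rows were lower in HFD EVs without overlap. Of 4 liver and gut, 6 muscle and 15 testis and epididymis miRNAs tested, edgeR called 0, with 1, 0 and 0 at an unadjusted p under 0.05. DESeq2 and limma-voom each called 1 liver and gut miRNA lower and 0 of the others.

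As summed shares, the liver and gut list took 0.209 to 2.0% of counts in HFD libraries and 0.158 to 2.22% in Chow libraries. The testis and epididymis list took 0.0819 to 0.403% in HFD libraries and 0.0515 to 0.494% in Chow libraries. The red cell miRNA miR-451a had 393, 1511 and 1393 CPM in HFD libraries and 1142, 980.5 and 1509 CPM in Chow libraries, which overlapped (log2 fold change −0.14, adjusted p = 0.921, edgeR). Of the other 5 red cell rows tested, 4 did not overlap between diets, and edgeR called none of them. Lack of overlap held for 32.6% of all tested rows. The log2 fold change of miR-486a-5p, whose counts miR-486a-3p and miR-486b-3p repeat, was −1.35 (adjusted p = 0.0838), and that of miR-144-5p was 1.8 (adjusted p = 0.0956). Of the 6 red cell rows tested edgeR called 0, with 4 at an unadjusted p under 0.05. DESeq2 called 1 higher and 3 lower, and limma-voom 0. The repeated miR-486a counts enter these numbers more than once. By edgeR, 99 of all 389 tested rows had an unadjusted p under 0.05. HFD library 1 was the lowest of its diet for all of miR-215-5p, miR-881-3p, miR-1a-3p and miR-451a, whereas for miR-142a-5p it lay between HFD libraries 3 and 2. The part of other tissues in the diet difference was not tested.

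The 12 risen miRNAs with a sequence had a median GC content of 34.8% (range 30.4 to 52.2%), the 3 fallen ones with a sequence 50.0%, and all 328 tested miRNAs with a sequence 45.5%. In the lowest of 4 classes of GC content, from 23.8 to 40.9%, there were 117 tested miRNAs and 9 of the 12 risen ones. The median log2 fold change was 0.09 in that class and −0.38, −0.16 and −0.2 in the classes of rising GC content, so there was no steady gradient. Across the 328 miRNAs, which share libraries and are not independent, Spearman's rho of log2 fold change with GC content was −0.2. A uracil as the first base was found in 66.7% of the risen miRNAs and in 45.7% of all tested. The motifs GGAG and CCCU, which have been linked to sorting of miRNAs into EVs in human T cells, were searched on the mature strand. Neither was present in any of the 12 risen or 3 fallen miRNAs, and 7.93% of all tested miRNAs held GGAG and 5.49% held CCCU. Shares this low often give 0 among so few miRNAs, so no depletion can be read from it. The part of base composition in the calls was not tested.

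Small RNAs seen with a single diet were few and rare. In all Chow libraries 176 rows were at 0, and 8 of them had counts in every HFD library. In all HFD libraries 104 rows were at 0, and 2 of them had counts in every Chow library. The highest was miR-7062-5p with 14, 1 and 1 counts in HFD libraries and 0 in Chow libraries. This gave a level at least 3.64-fold higher in HFD EVs, computed against 3 counts over the Chow group. It rested mainly on HFD library 1, the deepest. The predicted small RNA novel_244 had 39, 15 and 17 counts in HFD libraries and 3, 4 and 1 in Chow libraries (log2 fold change 2.38, adjusted p = 0.051, edgeR), and novel_355 had 6, 3 and 0 in HFD libraries and 24, 11 and 15 in Chow libraries (−3.33, adjusted p = 0.0511).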

How the data were processed

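The EV table deposited by the authors gives, per the file headers, whole read counts for each mature miRNA in 6 library columns, with no normalisation. The submitters' processing notes name Bowtie. The sources used here do not give its version and role, the build, the annotation, the counter or the handling of strand and of reads with several matches. The hippocampus table was not used here.

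Counts were filtered with filterByExpr, scaled with TMM and tested with edgeR 4.0.16 (R 4.3.3) by the two-sided quasi-likelihood F test with robust fitting. P-values were adjusted by Benjamini-Hochberg over the 389 rows tested, with a call at an adjusted p under 0.05. The 695 rows removed held little, since the tested rows held at least 99.93% of each library. Arm ratios, with 0.5 added to each count, were tested with limma 3.58.1 on hairpins with at least 10 counts per arm in at least 3 libraries. Shares of counts were tested by an exact permutation test. The reads carry no molecular identifiers, so they do not count separate molecules. The scripts were tested on simulated counts.

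Named miRNAs were all called rows and their partner arms, the 10 most abundant, up to 4 abundant members per list, the 6 arm balances with the smallest p, rows absent with a diet and abundant predicted rows. let-7b-5p, miR-9b-3p, miR-3074-5p, miR-124-3p, miR-137-3p, the arm balance of miR-9 and other examples outside that rule were chosen after their values were seen. The lists, like the other choices, were made with earlier results of these data known, and lists are described by counts and medians, without a test. Alternatives were other scalings, no filter, DESeq2 1.42.0, limma-voom, fitting without robust weights, repeated rows kept once, known miRNAs alone, a replicate block and leaving out each library. Totals without miR-148a-3p and DESeq2 with libraries left out were added after seeing the data. RefSeq sequences (GRCm38) were matched by name for 328 of 386 tested known miRNAs, and gene annotation was GENCODE's on the same build.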

Additional observations from a re-analysis of the deposited data

How the results depend on the processing

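The calls between diets numbered 17 as reported, 38 with scaling by library totals, 29 with RLE size factors, 56 without a filter on low counts, 55 with DESeq2, 29 with limma-voom and 31 with repeated rows kept once. Leaving out each library gave 0 to 21 calls with edgeR and 25 to 74 with DESeq2 (39, 25 and 36 without HFD libraries 1, 2 and 3, and 32, 40 and 74 without Chow libraries 1, 2 and 3). The arm balance had 3 calls, 0 with at least 1 count per arm admitted, and 0 to 10 with libraries left out. The 17 called miRNAs kept their direction in all of these. For libraries left out, the lack of overlap between diets largely fixed this in advance. The labels do not say whether same-numbered libraries are paired. The correlations of same-numbered libraries' deviations from their group means were 0.00956, −0.179 and −0.192. Those of differently numbered libraries lay between −0.198 and 0.293, so these few values cannot settle pairing. With a replicate block, edgeR called 9 miRNAs and limma 11 arm balances. The cause of these differences was not tested.

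The log2 fold change changed sign for a few uncalled miRNAs: miR-98-3p to −0.0948 and miR-881-3p to −0.00608 with totals without miR-148a-3p, miR-99a-5p, let-7c-5p and miR-451a to 0.13, 0.17 and 0.22 with library totals and 0.076, 0.0619 and 0.0646 without a filter, and miR-99a-5p and miR-451a to 0.0135 and 0.038 with repeated rows kept once. With single libraries left out, the values were −0.17 to 0.37 for miR-98-3p, −0.8 to 0.62 for miR-30b-5p, −0.19 to 0.1 for miR-99a-5p, −0.37 to 0.14 for let-7c-5p, −0.4 to 1.07 for miR-155-5p, −1.11 to 0.29 for miR-362-3p, −0.22 to 3.51 for miR-215-5p, −0.53 to 1.54 for miR-881-3p, −0.3 to 1.33 for miR-1a-3p and −0.44 to 0.26 for miR-451a. Rows under 10 CPM had the largest errors, with a median SE of 0.59.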
